A study of Dugesia japonica with 6 samples.

Results

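The 100 contigs with the most reads in the planarian Dugesia japonica are described here, as they stood in animals adapted to adenosine dialdehyde (AdOx) and in control animals. They were chosen by their level alone: counts were scaled to the library total (CPM, counts per 1000000 counts of the library), and the 100 contigs with the highest mean CPM over all 6 libraries were taken from the 44723 contigs with at least 1 read. AdOx blocks the enzyme S-adenosylhomocysteine hydrolase, and the study set animals that had become resistant to this drug against controls. The 3 AdOx libraries came from intact planarians about 1 cm long that had spent 1 month in spring water with 100 µM AdOx, and the 3 control libraries from size-matched animals kept for 1 month in water with the hydrochloric acid vehicle alone. Both groups had been starved for at least 7 days beforehand, and each library pooled the poly(A) RNA of 6 individuals. Nothing in the labels ties a library to a vessel of its own, so p-values cover only the variation seen among these libraries, part of which may be technical.

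Planarians are flatworms that replace their tissues throughout life from a pool of dividing stem cells, the neoblasts. In the poly(A) RNA of whole animals, as background, the most abundant transcripts usually encode parts of the ribosome, translation factors, actins, tubulins and mitochondrial proteins, which all or most cells use. The inhibited enzyme breaks down S-adenosylhomocysteine, which is left over when methyl groups are moved onto RNAs, proteins and other targets and which itself slows such transfers. No gene name goes with a contig ID in these files, so the contigs are given by ID and by abundance rank, no cell type or tissue marker could be checked, and no function is assigned. The files give no contig lengths either. A rank therefore orders contigs by reads and not by molecules.

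Total counts ran from 15606794 to 20385026 per library. AdOx replicate 2 and control replicate 1 stood apart from the rest of their groups in much of what follows, so results that rest on them are given with and without them. In whole-animal RNA, fewer cells of a type and less RNA per cell cannot be told apart.

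Between 22.4% and 23.9% of all reads in each library fell on the 100 abundant contigs. Their share was 22.4%, 23.4% and 22.4% in AdOx replicates 1, 2 and 3, and 23.0%, 23.9% and 23.9% in control replicates 1, 2 and 3. The group means were 22.7% ± 0.578 (SD, n = 3) and 23.6% ± 0.534 (SD, n = 3), and the groups overlapped, since AdOx replicate 2 lay above control replicate 1. Ranks 1 to 3 alone held 3.17%, 3.23% and 3.16% of the AdOx libraries and 3.47%, 3.59% and 3.69% of the control libraries. Here the groups did not overlap, and these 3 contigs made up 47.5% of the net summed difference in CPM between the group means of all 100. That net difference was -8468 CPM, of which the 3 gave -4019. It sums -12750 over the 59 contigs with a lower mean CPM in AdOx and 4282 over the 41 with a higher one, so the percentage overstates their part of the lowering. Ranks 51 to 100 held nearly the same share in both groups, 6.57% ± 0.103 in AdOx and 6.59% ± 0.118 in control (SD, n = 3). Of all reads, 50% were reached with the 724 to 832 most abundant contigs of a library, and 90% with 11116 to 11879.

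**Figure D1:**
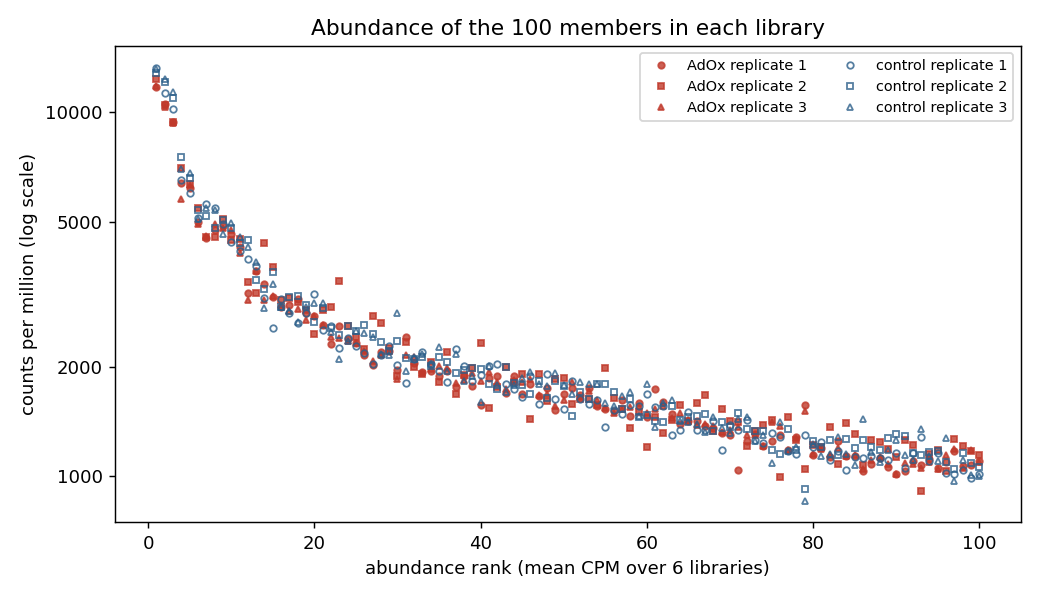
CPM (log scale) of each of the 100 abundant contigs against abundance rank, with 1 point per library, filled for AdOx and open for control. Levels run from a mean of 12537 CPM at rank 1 to 1068 CPM at rank 100, and the 6 libraries of a contig lie close together beside that range.

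The contig with the most reads was comp133162_c0_seq1. In replicates 1, 2 and 3, in that order here and below, it stood at 11772, 12367 and 11844 CPM under AdOx and at 13282, 12820 and 13139 CPM under control. All 3 AdOx libraries were below all 3 control libraries. The next places were held by both contigs of component comp141548_c0, a component being the set of contigs that share the ID up to the sequence number. Contig comp141548_c0_seq2 had 10517, 10465 and 10371 CPM under AdOx and 11278, 12085 and 12385 CPM under control. Contig comp141548_c0_seq1 had 9407, 9421 and 9337 CPM under AdOx and 10190, 10981 and 11399 CPM under control. For both, the AdOx libraries were nearly level while the control libraries were spread, and the groups did not overlap.

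The order was clear-cut at the top and tight below. Contig comp67387_c0_seq1, at rank 4, had 6410, 7028 and 5766 CPM under AdOx and 6518, 7516 and 6981 CPM under control. Contig comp138714_c1_seq2, at rank 5, had 6207, 6354 and 6327 CPM under AdOx and 6015, 6607 and 6816 CPM under control. The groups overlapped in both contigs, and the ranges of ranks 4 and 5 overlapped each other, whereas rank 3 lay above rank 4 in every library. Only 6 contigs had a mean over 5000 CPM, 29 lay from 2000 to 5000 and 65 were at or below 2000. At the edge of the list, rank 100 (comp67243_c0_seq1) had a mean of 1068 CPM and the next contig (comp124177_c0_seq1), just outside, 1063 CPM, a gap far smaller than the spread of either between libraries.

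The list hardly depended on the group used to draw it up. Taken from the AdOx libraries alone it shared 97 contigs with the list from all 6, and taken from the control libraries alone it shared 96. Both draw on libraries that also enter the list from all 6, so part of these overlaps is set by construction. The AdOx and control lists, which come from separate libraries, shared 93 contigs with each other, and the same 10 contigs led both. Single libraries, which likewise enter the list from all 6, shared from 92 (AdOx replicate 2) to 99 (AdOx replicate 3) with it. Of the 100, 88 were among the first 100 of every library. Between the group means a contig moved by a median of 4 ranks, and 14 contigs moved by more than 10. The furthest move was that of comp146234_c0_seq1, at 107th place in control and 69th in AdOx.

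Most of the abundant contigs were alone in their component. The files listed no other contig of the component for 84 of 100, against 21.2% of all 44723 contigs. The share fell with abundance, from 76.8% in the next 900 contigs to 39.3% in the 9000 after those and 14.9% in the remainder. Near the foot of the list it was higher, 92.0% at ranks 51 to 100, and it was 90.0% of the next 100. In the first 10 places 6 were alone. The 100 contigs came from 94 components, of which 1 supplied 3 contigs and 4 supplied 2. No component of an abundant contig had more than 5 contigs, while the largest of all had 108.

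The proportions of contigs within a component were steadier in some components than in others. In comp141548_c0, the contig at rank 3 held 47.2%, 47.4% and 47.4% of the component's counts under AdOx and 47.5%, 47.6% and 47.9% under control. Its ratio to the contig at rank 2 varied by 0.997% (coefficient of variation, CV, over 6 libraries), where the rank 2 contig itself varied by 7.88%. Across the 6 such ratios in 5 components the CV ran from 0.997% to 6.00%. In comp141858_c0 the ratio of rank 54 to rank 10 varied by 4.06%, nearly as much as the rank 10 contig itself, 4.47%. In comp137449_c1 the ratio of rank 42 to rank 20 varied by 6.00%, beside 8.92% for the rank 20 contig. No source used here tells how reads matching several contigs were counted, so near-identical contigs may share or split reads. Of the 16 contigs with another contig in the component, 5 had a share of the component's counts that did not overlap between groups, against 10.2% of all contigs with others in the component. Since comp141548_c0 has 2 contigs, their shares sum to the whole and count as 1 observation. The differences in share between group means had a median of 0.402 and a largest value of 4.14 percentage points. The largest was that of the contig at rank 71, whose share ran from 79.4% to 91.6% among the AdOx libraries and from 84.3% to 92.2% among the control libraries.

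None of the 100 abundant contigs passed edgeR's quasi-likelihood test between AdOx and control, where 0.147% of all 38728 tested contigs did (adjusted p under 0.05, Benjamini-Hochberg over all tested contigs). At that background rate a list of 100 would hold less than 1 call on average, so the count does not set the abundant contigs apart. The smallest edgeR adjusted p among them was 0.210. With an unadjusted edgeR p under 0.05 there were 9 lower in AdOx, against 4.33% of all tested contigs, and 3 higher, against 4.66%. In either direction there were 12 of the 100. The next 100 contigs also had 12 and the next 900 had 129, so this count does not set the abundant contigs apart from their neighbours. DESeq2's Wald test passed 1 of the 100, lower in AdOx, against 0.495% of the contigs it gave an adjusted p.

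The differences were small and bounded closely. The median absolute log2 fold change was 0.06, and the largest was 0.42, or 1.34-fold. The standard errors lay between 0.09 and 0.15 on the log2 scale. For 96 of the 100 the 95% interval of the fold change lay wholly within 1.5-fold in either direction, and for all 100 it lay within 2-fold. By sign alone 65 were lower in AdOx, against 48.7% of all tested contigs, and 35 higher. With library totals as the scaling 59 were lower. The median log2 fold change of the 100 was -0.04, beside 0.01 over all tested contigs. The tally by sign rested on single libraries: 50 were lower without AdOx replicate 3 and 51 without AdOx replicate 1, an even split, but 82 without AdOx replicate 2 and 80 without control replicate 1. The difference in medians was smaller than the within-group spread of the libraries, 0.08 on the log2 scale for the median over the 100 contigs. Ranks 1 to 10 had the most negative median, -0.14, with 9 of 10 lower, ranks 11 to 50 had -0.03 and ranks 51 to 100 had -0.02. Ranks 2 and 3, both among these 9, are contigs of 1 component. The split by rank was chosen after the values were seen.

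**Figure D2:**
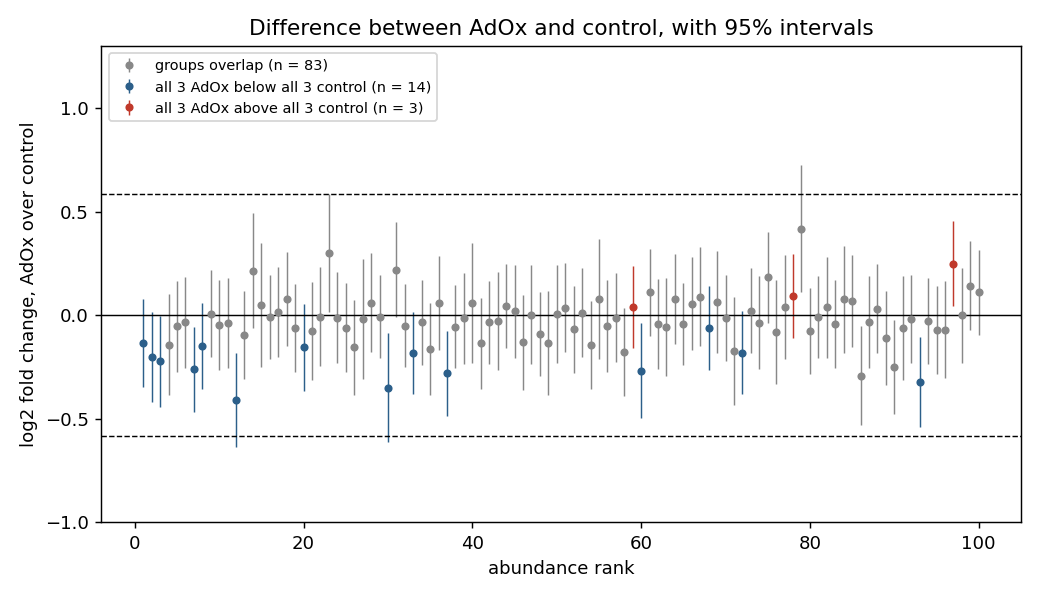
Log2 fold change of AdOx over control (edgeR, points) with its 95% interval (bars) for each of the 100 abundant contigs, by abundance rank. Dashed lines mark 1.5-fold, colours mark groups that do not overlap, and 4 intervals reach past a dashed line, at ranks 12, 23, 30 and 79.

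Contigs whose groups did not overlap lay mostly on the lower side. In CPM scaled by the trimmed mean of M-values (TMM), all 3 AdOx libraries were below all 3 control libraries in 14 of the 100, against 6.65% of all tested contigs. The reverse held in 3, against 7.89%. In the next 100 contigs 8 were apart on the lower side and 5 on the higher. In the next 900 the shares were 8.67% and 8.89%. Within the list, 5 of the first 10 contigs were apart on the lower side. Ranks 2 and 3, both among these 5, belong to 1 component and may share or split reads, so they are not separate observations. At ranks 51 to 100 the share apart was 8.00% on the lower side and 6.00% on the higher. Ranks 1, 2, 3, 7, 8 and 12 were among the 14, which differed from 1.04-fold to 1.33-fold with a median of 1.16-fold. At rank 7, for example, the AdOx libraries had 4522, 4546 and 4579 CPM and the control libraries 5600, 5177 and 5468 CPM. EdgeR put the log2 fold change there at -0.26 (standard error 0.10, adjusted p 0.428). The 3 on the higher side, at ranks 59, 78 and 97, differed by 1.03-fold, 1.07-fold and 1.19-fold.

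The most negative difference was at rank 12, in comp132279_c0_seq1. This contig had 3182, 3415 and 3040 CPM under AdOx and 3958, 4467 and 4276 CPM under control. The groups were well apart, with 3212 ± 189 CPM in AdOx and 4234 ± 257 CPM in control (SD, n = 3). EdgeR put its log2 fold change at -0.41 (standard error 0.11, adjusted p 0.210), with a 95% interval from -0.64 to -0.18. It was the contig that DESeq2 passed, with an adjusted p of 0.0307. Without AdOx replicate 2 its edgeR adjusted p was 0.0489.

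The second most negative was comp136104_c0_seq1 at rank 30. It had 1958, 1881 and 1851 CPM under AdOx and 2020, 2348 and 2803 CPM under control. The AdOx libraries lay together just below control replicate 1, and control replicate 3 was far above the other controls. By edgeR its log2 fold change was -0.35 (standard error 0.12, adjusted p 0.402), and it was -0.22 without control replicate 3.

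The most positive difference was in comp146234_c0_seq1 at rank 79, which was also the most variable of the 100 within groups, with a CV of 19.0%. It had 1572, 1047 and 1512 CPM under AdOx and 1295, 924 and 856 CPM under control. AdOx replicate 2 lay below control replicate 1, so the groups overlapped. By edgeR its log2 fold change was 0.42 (standard error 0.15, adjusted p 0.388). Without AdOx replicate 2 the edgeR value was 0.56, with an adjusted p of 0.0496.

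The next most positive, comp132328_c1_seq1 at rank 23, had 2584, 3438 and 2391 CPM under AdOx and 2249, 2446 and 2096 CPM under control. AdOx replicate 2 was far above all other libraries, and AdOx replicate 3 lay below control replicate 2. EdgeR gave 0.30 for its log2 fold change (standard error 0.13, adjusted p 0.530), which came down to 0.09 without AdOx replicate 2. The steadiest of the 100 was comp116139_c0_seq1 at rank 59, which had 1584, 1499 and 1553 CPM under AdOx and 1561, 1457 and 1461 CPM under control. After TMM scaling its within-group CV was 0.702%, close to the 0.611% that counting alone gives. Its groups then did not overlap, at 1.03-fold, an arrangement that the unscaled CPM do not show.

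**Figure D3:**
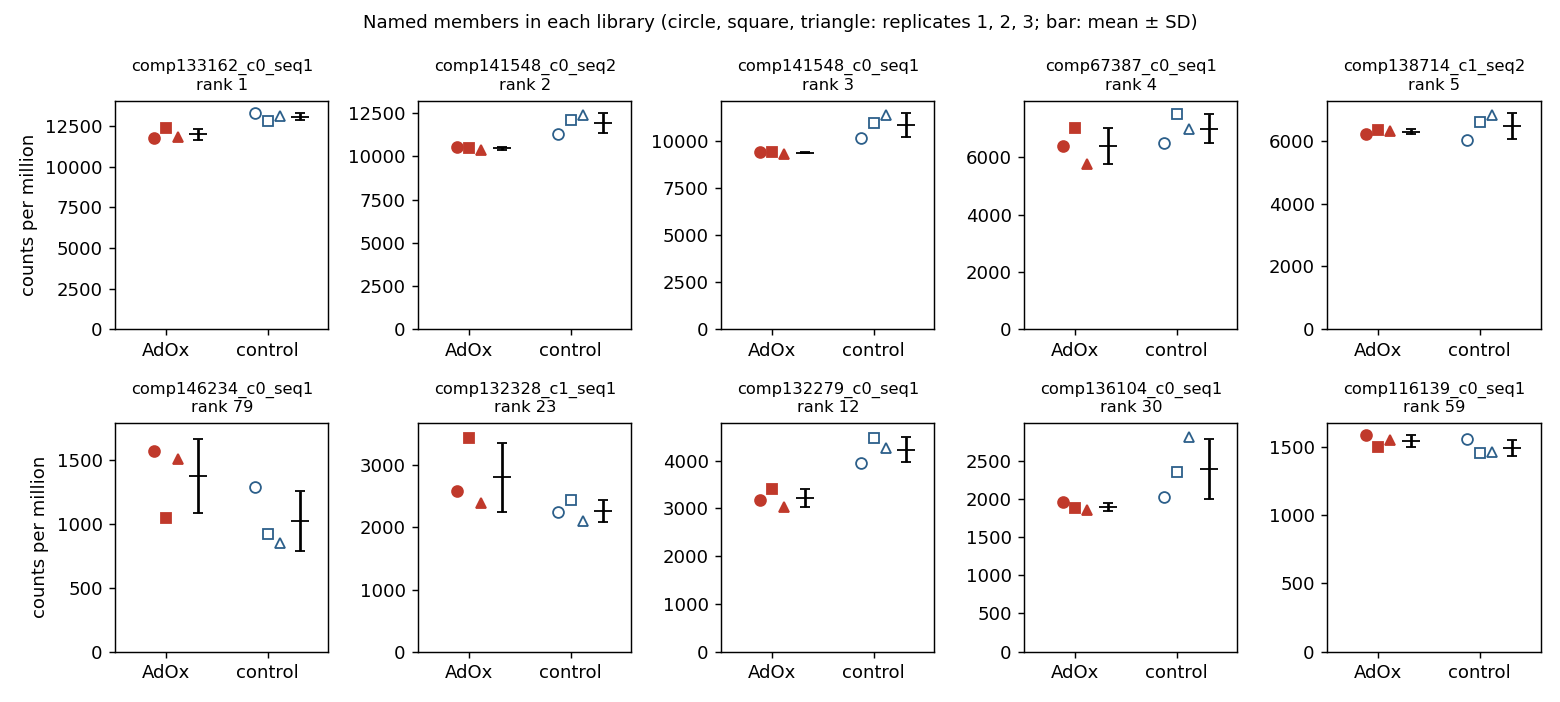
CPM of 10 named abundant contigs in each library on axes that start at 0, with AdOx filled and control open; circles, squares and triangles are replicates 1, 2 and 3, and bars give mean ± SD (n = 3). The groups are apart at ranks 1, 2, 3, 12 and 30 and overlap at ranks 4, 5, 23, 59 and 79.

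The authors' deposited table of 119 contigs listed 6 of the 100, which is 5.04% of the table and 6.00% of the abundant contigs, against 0.307% of all tested contigs. The same table listed 3 of the next 100 contigs and 36 of the next 900 (4%). It listed 0.8% of the 9000 after those and 0.0174% of the remaining tested contigs. The contrast with all tested contigs is therefore not particular to the 100, since the listed share was far lower among less abundant contigs. Of the 6 abundant contigs listed, the authors' deposited table gave 5 as lower in AdOx and 1 as higher, beside 89 and 30 in the table as a whole. The log2 fold changes in the authors' deposited table were -0.56 for comp132279_c0_seq1, -0.50 for comp136104_c0_seq1 and 0.73 for comp146234_c0_seq1. For the contigs at ranks 49, 86 and 90 the authors' deposited table gave -0.35, -0.44 and -0.41. In the edgeR fit to all 6 libraries these 3 had -0.13, -0.29 and -0.25, with adjusted p-values of 0.771, 0.464 and 0.508. Its column of mean normalized counts (the authors' deposited table) matched 1 of the 9 choices of 2 libraries per group, to within 1e-06%, and that choice leaves out AdOx replicate 2 and control replicate 1. The table therefore shares its libraries with the fit to all 6.

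Both libraries numbered 2 were high in many of the abundant contigs, and control replicate 3 was high in many too. In 42 of the 100 the highest libraries were AdOx replicate 2 and control replicate 2, in either order, against 12.4% of all tested contigs. Both were the lowest in 5, against 13.0%. The contig at rank 55 shows the pattern, with 1982 CPM in AdOx replicate 2 and 1531 and 1539 in the other AdOx libraries, and with 1789 CPM in control replicate 2 and 1363 and 1590 in the other controls. The contig at rank 76 shows the opposite, with 993 CPM in AdOx replicate 2 beside 1298 and 1373, and 1149 CPM in control replicate 2 beside 1284 and 1404. Both groups were low in their second library there. Control replicate 3 was the highest library in 34 of the 100, against 18.7% of all tested contigs. Its median log2 deviation from the mean of each contig over all libraries was 0.06. That median was 0.07 in AdOx replicate 2 and 0.08 in control replicate 2, and from -0.09 to -0.05 in the other libraries. Contig by contig, AdOx replicate 2 lay nearer control replicate 2 (median absolute log2 difference 0.09) than control replicate 3 (0.16).

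The deviation of the libraries numbered 2 had the same sign in both groups for 93 of the 100, against 66.4% of all tested contigs. Across the 100 contigs the deviations of AdOx replicate 2 and control replicate 2 from their group means correlated at 0.81. This describes contigs that share the same libraries and is not a test. AdOx replicate 2 differed from the mean of the other AdOx libraries by a median of 0.15 on the log2 scale and control replicate 2 from the other controls by 0.12. The median absolute difference between AdOx and control was 0.06. That value compares whole groups, which vary less than a single library set against the others of its group. The sizes are therefore not like measures. The labels do not say what the libraries of 1 number share, and the part of a shared batch was not tested.

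**Figure D4:**
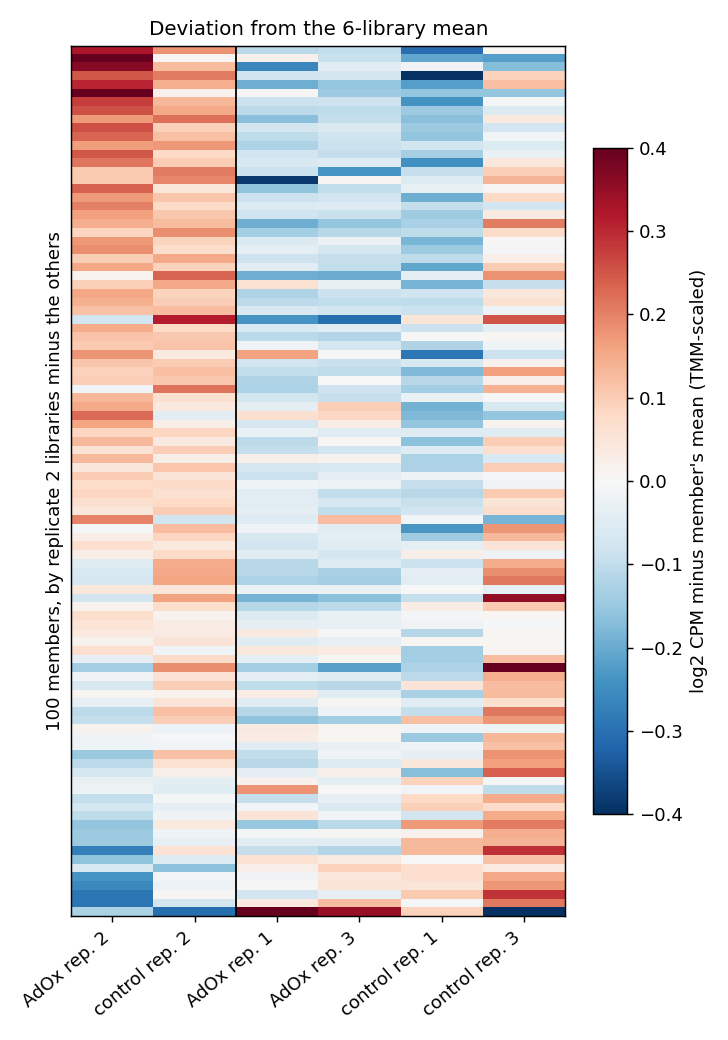
Deviation of log2 CPM (TMM-scaled) from each contig's mean over 6 libraries, for the 100 abundant contigs in rows, ordered by the level in both replicate 2 libraries minus that in the other 4. In the left columns, AdOx and control replicate 2, most rows are red (high) together and a few at the bottom are blue (low) together.

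The same pattern was rarer far down the order of abundance. Both libraries numbered 2 were highest in 33.9% of the next 900 contigs, in 19.6% of the 9000 after those and in 9.38% of the remaining tested contigs. Right below the list, in the next 100 contigs, the figure was 44.0%, so the pattern is not particular to the 100. Among the abundant contigs it was seen in 40 of the 84 that were alone in their component and in 2 of the 16 that were not. Over all tested contigs the shares were 23.7% and 9.34%, and in the next 900 they were 36.9% and 23.9%. With library totals in place of TMM factors the count was 31 of 100, against 8.11% of all tested contigs.

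Without AdOx replicate 2 or control replicate 1, more of the abundant contigs had all AdOx libraries below all control libraries. AdOx replicate 2 was the highest library in 39 of the 100, against 25.1% of all tested contigs, and the lowest in 13, against 25.8%. Control replicate 1 was the lowest in 43, against 18.5%, and the highest in 2, against 15.6%. Leaving out either library therefore moves contigs toward lower in AdOx by construction. With AdOx replicate 2 left out, the groups were apart on the lower side in 34 of the 100, against 11.7% of all tested contigs. EdgeR then passed 2 contigs, against 0.336%, namely those at ranks 12 and 79. Without control replicate 1 the count apart on the lower side was 31, against 11.3%. Without both, in the 4 libraries of the authors' table, 70 of the 100 were lower in both AdOx libraries than in both control libraries, against 19.2% of all tested contigs. On the higher side there were 6, against 19.5%. EdgeR passed 11 of the 100 there, 10 lower and 1 higher, against 0.737%. The median log2 fold change was then -0.14, and the difference in the summed share was -1.49 percentage points in place of -0.85. In these 4 libraries the control side holds a library numbered 2 and the AdOx side does not. Control replicate 3 resembled control replicate 2 in its make-up. To reach 50% of reads took 724 and 738 contigs in control replicates 2 and 3, and 824 and 832 in AdOx replicates 1 and 3. Of the libraries left out, AdOx replicate 2 took 730 and control replicate 1 took 824. In the 4 libraries, group and this difference between libraries cannot be told apart. The part of the pattern of the libraries numbered 2 in this shift was not tested.

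The spread between libraries, and not counting, limited what could be seen. Each abundant contig had from 14206 to 270746 reads in a library, so counting alone gives a CV between 0.213% and 0.728%. The within-group CV had a median of 7.34%, from 0.702% to 19.0%. In the next 900 contigs its median was 8.81%, and over all tested contigs it was 13.2%. The median CV from counting alone over all tested contigs, a separate median and not a part of that value, was 11.1%. The median standard error of a log2 fold change was 0.10 both for the abundant contigs and for the next 900. EdgeR draws the variance of each contig toward a value shared across contigs, so this likeness is partly set by the method. The contig at rank 59, with a within-group SD of 0.01 on the log2 scale, still had a standard error of 0.09. The median within-group SD was 0.11 for the abundant contigs and 0.13 for the next 900. Closest to one another were AdOx replicates 1 and 3, with a median absolute difference of 0.03 on the log2 scale over the 100 contigs. The other 5 pairs within a group ran from 0.09 (control replicates 2 and 3) to 0.17, and the 9 pairs between groups from 0.07 to 0.20, so the ranges overlapped.

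**Figure D5:**
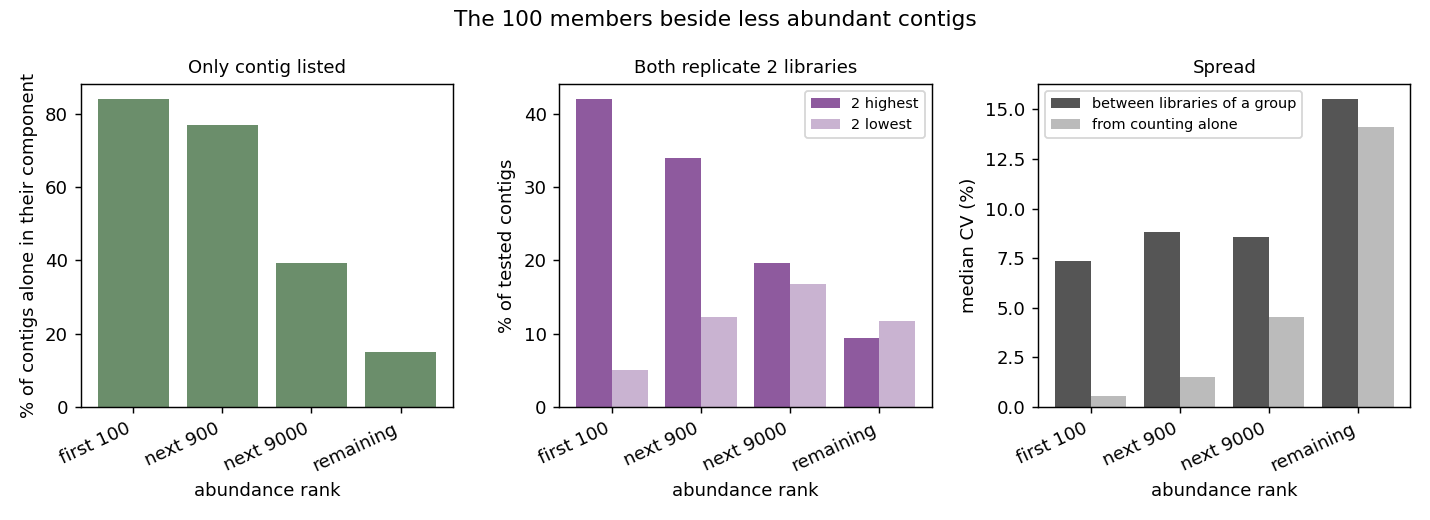
The abundant contigs (first 100) beside less abundant ones, in 4 classes of abundance rank: percent of contigs alone in their component, percent of tested contigs with both replicate 2 libraries highest or lowest, and median CV between libraries of a group and from counting alone. The abundant contigs have the tallest bars of the 4 classes for being alone (84.0%) and for both replicate 2 libraries highest (42.0%), and the lowest CV from counting (0.579%).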

How the data were processed

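Per the labels, 6 poly(A)-selected libraries were sequenced, 3 of AdOx-adapted and 3 of control planarians. The authors deposited raw counts of reads per contig, as whole numbers, and contigs with no reads are not listed, so a missing contig was taken as 0. Per the submitters' processing notes, Bowtie2 2.2.3 and DESeq2 were among the tools. No source used here names the transcriptome, the counting step or the use of strand. A deposited table of 119 contigs holds, per the file headers, log2 fold changes and standard errors, p-values and, as score columns, mean normalized counts and Wald statistics from the authors' own comparison.

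EdgeR 4.0.16 (R 4.3.3) was run on all contigs: filterByExpr (minimum count 10, minimum total 15), which kept all 100 abundant contigs and 38728 in all, TMM factors, and the quasi-likelihood test with the group as the only term, two-sided, Benjamini-Hochberg threshold 0.05. Standard errors are the absolute log2 fold change divided by the square root of F. Log2 CPM used a prior count of 2. Printed CPM are unscaled unless TMM is named. The code was tested on simulated data. Alternatives were DESeq2 1.42.0 (Wald test or size factors), library totals, no filter, component totals, other thresholds, a replicate block, members chosen from control libraries, and leaving out libraries. Named contigs are ranks 1 to 5, rank 100 and the next, the 2 most positive and 2 most negative differences, and the most and least variable. Contigs given by rank alone were picked as examples after their values were seen. The contigs, lists and tests were chosen with earlier results of these data known. Gene lists were not analysed, since the files hold no gene names.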

Additional observations from a re-analysis of the deposited data

How the results depend on the processing

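The count of abundant contigs that passed between AdOx and control was 0 with edgeR on DESeq2 size factors, library totals, no filter, component totals, thresholds of 0.01 and 0.1, and a list drawn from control libraries. It was 1 with DESeq2's Wald test, against 0.495%, and 11 without AdOx replicate 2 and control replicate 1 together, against 0.737%. That last setting also gave 76 contigs with groups apart, 70 lower and 6 higher, against 19.2% and 19.5% of all tested contigs. Its median log2 fold change was -0.14 and its difference in summed share -1.49 percentage points. Leaving out 1 library gave from 0 to 2 calls, against 0.0231% to 0.336% of all tested contigs. The groups were then apart in 20 to 38 of the 100 (17 with all 6, against 14.5%). On the lower side there were 14 to 34, against 10.8% to 14.4%, and on the higher side 3 to 9, against 10.2% to 14.4%. Except without AdOx replicate 2 (34) or control replicate 1 (31), the lower side held 14 to 19. Medians ran from -0.09 to -0.002 and share differences from -1.18 to -0.67 points. With fewer libraries, groups are apart more often in any list. With the replicate number as a block edgeR passed 7 (2 higher, 5 lower), against 2.38% of all tested contigs. The labels do not tie the numbers to a batch, and the deviations of same-numbered libraries correlated at 0.09, 0.33 and 0.13 over all tested contigs, so the pairing was not used. Over the 100 abundant contigs they correlated at 0.39, 0.81 and 0.29, and AdOx replicate 3 correlated more with control replicate 1 (0.41) than with its own number. The 10 contigs named with a fold change kept their direction in every alternative run, and 11 of 130 such values passed the threshold where the fit to all 6 libraries did not. With library totals 5 contigs were apart on the higher side instead of 3. Over all tested contigs that share was 9.31% instead of 7.89%. With the same scaling 11 had both libraries numbered 2 lowest instead of 5, beside 17.6% instead of 13.0% of all tested contigs. For these shifts the cause was not tested. The gene lists could not be run without gene names. Depth did not limit these contigs.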
